A study of Mus musculus with 4 samples.

Results

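A group of 9 genes of apoptotic cell uptake was followed across 4 populations of cultured mouse marrow cells: the TAM receptors Mertk, Axl and Tyro3, their ligands Gas6 and Pros1, the bridging protein Mfge8, the phosphatidylserine receptor Timd4, and the cytoskeletal adaptors Elmo1 and Dock1. They were taken by gene symbol, and all 9 of 9 were found, with 16 probes in all, among 19822 named genes of the array. Of these genes, 5 had 1 probe, Pros1 had 2, and Tyro3, Elmo1 and Dock1 had 3 each. Of the 16 probes, 13 were well above background on every array.

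The cells came from BALB/C bone marrow, and each population was hybridised to 1 one-colour Agilent array. Antibody-treated sDC were cells that formed by day 9 from lineage-depleted progenitors seeded on a layer of Sca-1+CD117-Lin- mesenchymal stem cells (MSC), with LPS from day 4 and an IL-10-neutralizing antibody at 10 µg/mL every 2 days. The sDC were made in the same way without the antibody. The maDC, mature dendritic cells (DC), were imDC kept a further 4 to 5 days with LPS, a component of bacterial walls that drives DC to mature, at 10 ng/mL. The imDC, immature DC, were loosely adherent clusters taken on day 4 of a marrow culture with GM-CSF at 10 ng/mL plus IL-4 at 5 ng/mL, and were selected with anti-CD11c beads. All groups except imDC had therefore been exposed to LPS, at a dose not given for the sDC cultures, and GM-CSF and IL-4 are not recorded for the sDC cultures in the labels. The sources used here do not record how sDC were taken off the stroma.

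Cells dying by apoptosis expose phosphatidylserine, which phagocytes recognise either directly, as through TIM-4 (the product of Timd4), or through soluble proteins that bridge the lipid to a receptor. Gas6 binds every TAM receptor and protein S (Pros1) binds Tyro3 and Mertk, whereas Mfge8 bridges the lipid to alpha-v integrins. Elmo1 and Dock1 together activate the GTPase Rac, which drives the closing of the engulfing cup. In DC, signalling by the TAM receptors is also known to dampen responses to Toll-like receptors and type I interferon. Macrophages are the cell type best known for Mertk, and Axl is known as a receptor that rises in inflamed DC.

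The probes that carry the differences described next are given 5′ to 3′ as printed on the array, with their positions in mm9, the build of the scanner files. They are the single probes of Gas6, Mertk and Axl, and the 3 probes of Tyro3, which did not move together. Gas6, Mertk and Axl differed most from maDC and imDC among the genes well above background in sDC. Timd4, which was not, is described further below. The Gas6 probe lies at chr8:13465444-13465503, that of Mertk at chr2:128627867-128627926 and that of Axl at chr7:26542953-26543012. Tyro3 was covered at chr2:119643274-119643333, at chr2:119643036-119643095 and, 15597 bp from the nearer of these, at chr2:119627379-119627438. No exon or untranslated-region annotation of this build was used here.
Gas6 A_51_P172054: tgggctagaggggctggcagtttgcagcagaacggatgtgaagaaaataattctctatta
Mertk A_51_P366138: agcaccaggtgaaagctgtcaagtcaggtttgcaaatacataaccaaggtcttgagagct
Axl A_52_P311787: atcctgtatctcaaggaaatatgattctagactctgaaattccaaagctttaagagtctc
Tyro3 A_52_P581056: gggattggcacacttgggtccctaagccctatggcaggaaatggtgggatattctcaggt
Tyro3 A_51_P456266: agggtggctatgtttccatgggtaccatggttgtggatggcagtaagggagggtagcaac
Tyro3 A_52_P411629: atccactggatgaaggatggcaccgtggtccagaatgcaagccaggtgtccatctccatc

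Levels are log2 signal relative to the 75th percentile of the same array, so that 0 marks that percentile and a level can be compared between arrays for a probe but not between probes. With 1 array per group there are no replicates: no difference below has a test or a standard error, and differences are counted at 2-fold, a log2 difference of 1. Precision is limited by the number of arrays. The scanner's own error, which covers the spot and the scan only, came to 0.20 to 0.33 log2 units for the differences measured between sDC, maDC and imDC. The 4 arrays held 43379 spots each, of which 61.2% to 69.7% were well above background and 0 were saturated. The antibody-treated sDC, sDC and maDC arrays shared a slide, while the imDC array lay on another. In any comparison with imDC, the slide and the culture cannot be told apart. In such bulk RNA, fewer cells of a type and less RNA per cell cannot be told apart either.

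The labelled cell types were first set against marker genes. Summed levels of a list are set mostly by its brightest probes, and are compared between arrays only. DC markers were low in both sDC populations: the 12 genes summed to 8.88 times the 75th percentile in antibody-treated sDC and 9.76 in sDC, against 434 in maDC and 315 in imDC, and Irf4 was not well above background in either sDC population. All 12 were at least 2-fold lower in sDC than in maDC and than in imDC, beside 16.8% and 16.1% of all genes. Macrophage markers ran the other way, with summed levels of 1055 in antibody-treated sDC, 1113 in sDC, 628 in maDC and 259 in imDC, and Cd163 and Folr2 were not well above background in maDC or imDC. All 15 macrophage markers were at least 2-fold higher in sDC than in imDC, beside 25.4% of all genes. Against maDC, 11 of 15 were higher, beside 14.2%, and Adgre1, Cd14, Lyz2 and Siglec1 stayed within 2-fold. Lyz2 and Cd14, at 8.89 and 8.10 in sDC, gave the largest terms of the sDC sum.

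Stromal markers were present in the sDC arrays as well. Of the 16 genes, 12 were at least 2-fold higher in sDC than in imDC and 2 were lower, beside 25.4% and 16.1% of all genes. Their median difference was 5.29, and all 16 were well above background in antibody-treated sDC and in sDC. Their median level was 2.40 in antibody-treated sDC, 2.55 in sDC, −1.53 in maDC and −2.60 in imDC, while Pdgfra, Cxcl12 and Postn were not well above background in maDC, nor Col3a1, Pdgfra and Lum in imDC. Summed levels of the stromal list were 137, 223, 146 and 164 in that order of arrays. Thy1, at 6.63 in maDC and 6.74 in imDC, and Acta2, at 5.27 and 5.46, gave the largest terms of those 2 sums. Neutrophil markers summed to 237 in antibody-treated sDC, 130 in sDC, 84.0 in maDC and 1147 in imDC. S100a8 and S100a9, at 6.14 and 5.82, gave the largest terms of the sDC sum. Against maDC, 5 of 9 neutrophil markers were at least 2-fold lower in sDC and 2 higher, beside 16.8% and 14.2% of all genes. Mast cell and basophil markers summed to 0.887, 0.689, 139 and 26.7 in that order of arrays. T and B cell markers summed to 0.734, 0.626, 0.402 and 0.225. The part of any of these cell types in the differences below was not tested.

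**Figure D1:**
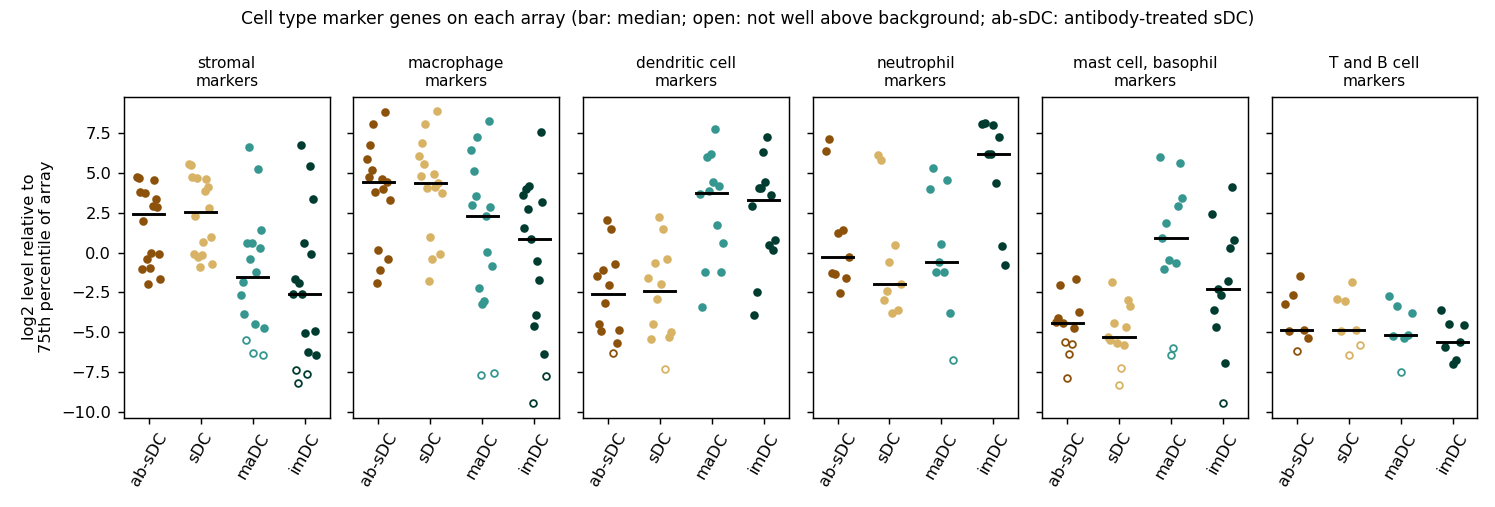
Log2 levels of marker genes of 6 cell types relative to the 75th percentile of each array (vertical axis) on the antibody-treated sDC, sDC, maDC and imDC arrays (horizontal axis), with 1 point per gene, a bar at the median, and open points for genes not well above background. By median, stromal and macrophage markers stand higher and DC markers lower on both sDC arrays, with stromal medians of 2.40 and 2.55 against −1.53 in maDC and −2.60 in imDC.

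Between sDC and imDC, the 9 genes moved in both directions. Gas6, Mertk and Pros1 were at least 2-fold higher in sDC and Axl and Tyro3 at least 2-fold lower, while Mfge8, Elmo1 and Dock1 stayed within 2-fold. Timd4 was not well above background in sDC and had no value that could be called. Thus 3 of 8 genes with a value were higher, beside 25.4% of the 15037 genes compared, and 2 of 8 were lower, beside 16.1%. The median difference of the 8 genes was 0.03, against 0.21 over all genes.

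Set against maDC, sDC showed the same 3 genes higher and a longer list lower. Gas6, Mertk and Pros1 were at least 2-fold higher, 3 of 9 beside 14.2% of 14601 genes. Axl, Tyro3, Timd4 and Elmo1 were at least 2-fold lower, 4 of 9 beside 16.8%, and Elmo1 only just passed that size. The median of the 9 differences was 0.02, against 0.025 over all genes. The comparisons of sDC with imDC and with maDC share the sDC array.

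**Figure D2:**
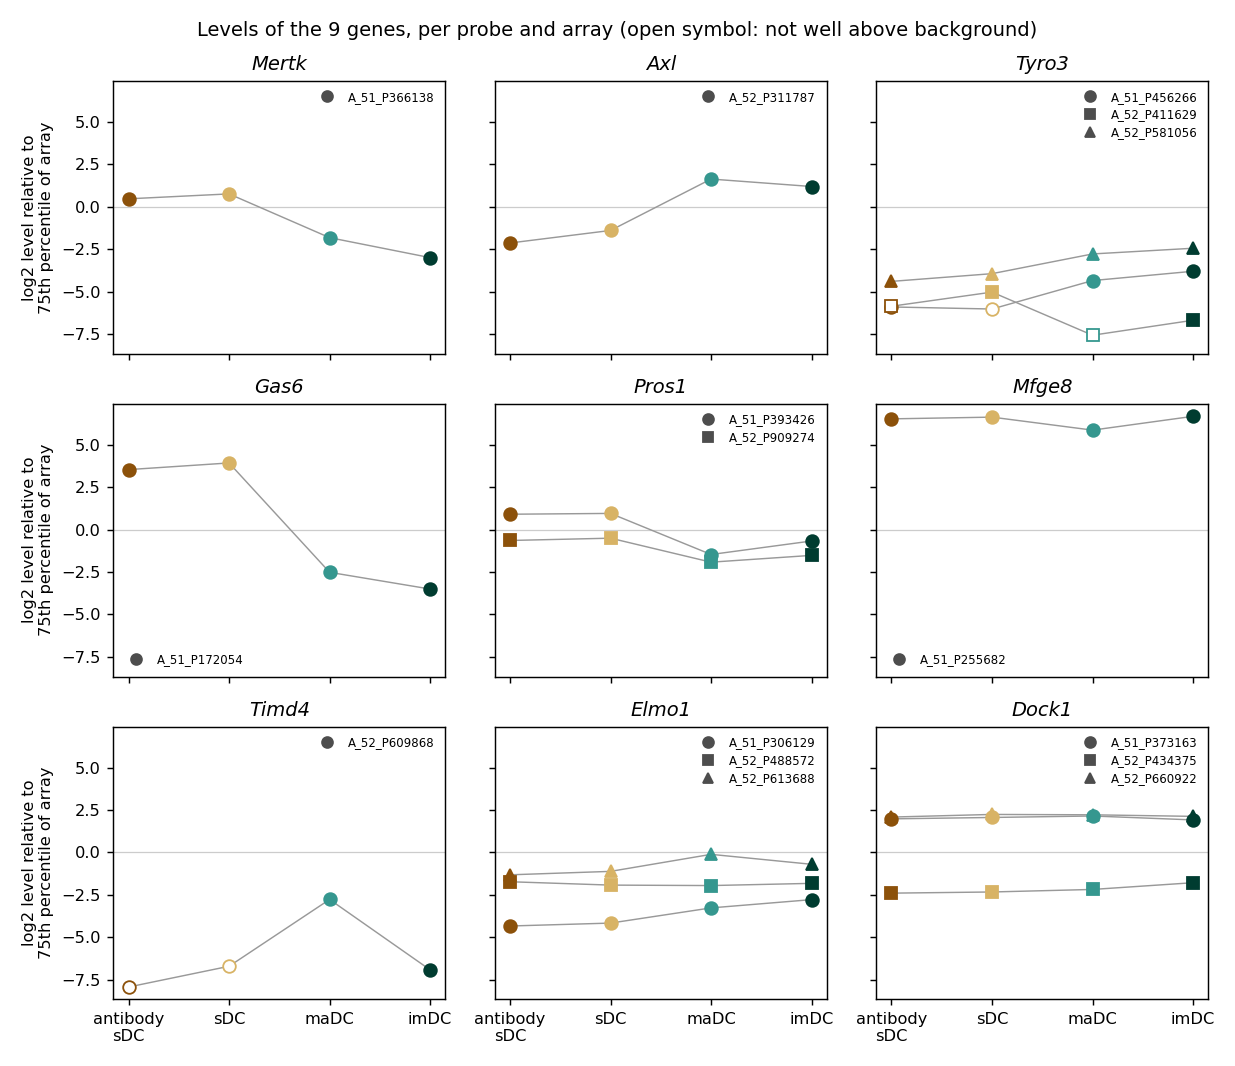
Log2 level relative to the 75th percentile of the array (vertical axis) for each probe of the 9 genes in antibody-treated sDC, sDC, maDC and imDC (horizontal axis), with open symbols where a probe was not well above background and symbol shapes for different probes of a gene. Gas6 and Mertk lie higher and Axl lower on both sDC arrays, Timd4 stands out in maDC, and the Dock1 probes run nearly level.

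Among the ligands, Gas6 had the largest difference of the 9 genes. Its level was 3.53 in antibody-treated sDC, 3.93 in sDC, −2.52 in maDC and −3.50 in imDC. The sDC value was 172-fold above imDC (log2 difference 7.43) and 87.0-fold above maDC (6.44). These differences ranked 20th from the top of 13876 genes measured in both sDC and imDC, and 9th of 13224 in sDC and maDC. Nearest genes were sought among 12942 genes measured on all arrays, by the distance between centred levels over the 4 arrays. The 3 closest to Gas6 were Col8a1 (root-mean-square distance 0.23 log2 units), Nxpe5 (0.338) and Cd248 (0.398). For every other member measured on all 4 arrays the nearest gene lay at a smaller distance. The distance is not scaled to a gene's range, which was widest for Gas6, so it does not compare how tightly members are followed. Col8a1 encodes a collagen chain and Cd248 endosialin, a surface protein known from stromal cells and pericytes, while Nxpe5 was not assigned to a cell type here. In antibody-treated sDC and sDC, Col8a1 read 2.21 and 3.05, Nxpe5 2.93 and 3.35, and Cd248 0.122 and 1.125. In the same comparison with imDC the stromal list had a median of 5.29 and the macrophage list one of 3.51, and the part of either cell type in the Gas6 signal was not tested.

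Pros1, which encodes protein S, was higher in sDC by both of its probes. The brighter probe, at chr16:62928674-62928733, read 0.90 in antibody-treated sDC, 0.95 in sDC, −1.47 in maDC and −0.67 in imDC, a 5.35-fold difference between sDC and maDC (2.42) and a 3.08-fold one between sDC and imDC. The other probe, 617 bp away at chr16:62927997-62928056, read −0.64, −0.51, −1.92 and −1.52 on those arrays, with sDC higher by 2.67-fold than maDC (1.41) and by 2.02-fold than imDC (1.01). With another background correction or other scalings, its difference from imDC came to between 0.86 and 0.96, inside 2-fold. Both Pros1 probes thus ranked maDC lowest, unlike Gas6, which was lowest in imDC. Mfge8, the milk fat globule protein that bridges to integrins, was bright everywhere, at 6.52 in antibody-treated sDC, 6.62 in sDC, 5.86 in maDC and 6.67 in imDC. Its largest difference was that of maDC against imDC, −0.81, within 2-fold.

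The TAM receptors split between the populations. Mertk, the receptor best known from macrophages, was at 0.46 in antibody-treated sDC, 0.75 in sDC, −1.82 in maDC and −3.002 in imDC. The sDC level was 13.5-fold above imDC, rank 309 of 13876, and 5.97-fold above maDC. Axl was lower on both sDC arrays, at −2.14 in antibody-treated sDC, −1.40 in sDC, 1.63 in maDC and 1.19 in imDC. Its sDC level was 6.02-fold below imDC (log2 difference −2.59) and 8.17-fold below maDC (−3.03), ranks 532 and 414 from the bottom of the measured genes. Each sDC array thus read higher for Mertk and lower for Axl than either the maDC or the imDC array.

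Tyro3 was dimmer, and its probes did not agree. The brightest probe, A_52_P581056, read −4.40 in antibody-treated sDC, −3.95 in sDC, −2.79 in maDC and −2.45 in imDC, so that sDC were 2.82-fold below imDC (−1.498) and 2.24-fold below maDC (−1.16). With normexp, another background correction, these came to −0.998 and −0.81, inside 2-fold. A_51_P456266, 178 bp from it, was not well above background in either sDC population. It put sDC at least 4.68-fold below imDC and at least 3.20-fold below maDC. With normexp these bounds came to −0.68 and −0.57, so that they no longer reached 2-fold. The upstream probe A_52_P411629 went the other way: it read −5.03 in sDC and −6.69 in imDC, 3.15-fold higher in sDC (1.66; 0.98 with normexp, inside 2-fold), and was not well above background in antibody-treated sDC or maDC. It placed sDC at least 1.33-fold above maDC. Tyro3 was 1 of 145 genes, out of 5867 with 2 or more measured probes, whose probes differed 2-fold in opposite directions between sDC and imDC, so its direction rests on which probe is read.

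Timd4, which encodes the receptor TIM-4 known from tissue-resident macrophages, was highest in maDC. Its level was −2.77 in maDC and −6.92 in imDC, a difference of 4.15 or 17.7-fold, rank 103 of 13567. The probe, at chr11:46657173-46657232, was not well above background in antibody-treated sDC or in sDC, which puts sDC at least 9.63-fold below maDC (a log2 difference of −3.27 or beyond). With normexp the bound for sDC minus maDC was −1.68, and the measured maDC minus imDC was 2.20 in place of 4.15.

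Of the adaptor genes, Dock1 ran nearly level and Elmo1 did not. Dock1, the exchange factor for Rac, read 2.09 in antibody-treated sDC, 2.24 in sDC, 2.22 in maDC and 2.13 in imDC by its brightest probe, at chr7:142365246-142365305. A probe 71 bp away read 1.98, 2.06, 2.15 and 1.92, and the other, 390360 bp from that one at chr7:141974695-141974754, read −2.40, −2.33, −2.18 and −1.78. No Dock1 probe differed by 2-fold between any of the arrays, and the distant probe had the widest values, −0.61 for antibody-treated sDC against imDC and −0.55 for sDC against imDC.

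Elmo1, the partner of Dock1, gave values that depended on the probe. Its brightest probe, at chr13:20698247-20698306, read −1.32 in antibody-treated sDC, −1.11 in sDC, −0.11 in maDC and −0.70 in imDC, and sDC were 2.00-fold below maDC (−1.003; −0.87 with normexp, inside 2-fold) but 1.33-fold below imDC (−0.42). The probe A_51_P306129, whose 60 bases span 10513 bp of the genome at chr13:20681555-20692067 and so are split over an intron, read −4.33, −4.16, −3.27 and −2.78, with sDC below imDC by 2.61-fold (−1.38; −0.84 with normexp, inside 2-fold). The remaining probe, at chr13:20382247-20382306, ran level at −1.73, −1.92, −1.95 and −1.82. Elmo1 thus read lower in sDC than in maDC and imDC at 2 of its probes and level at the other.

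**Figure D3:**
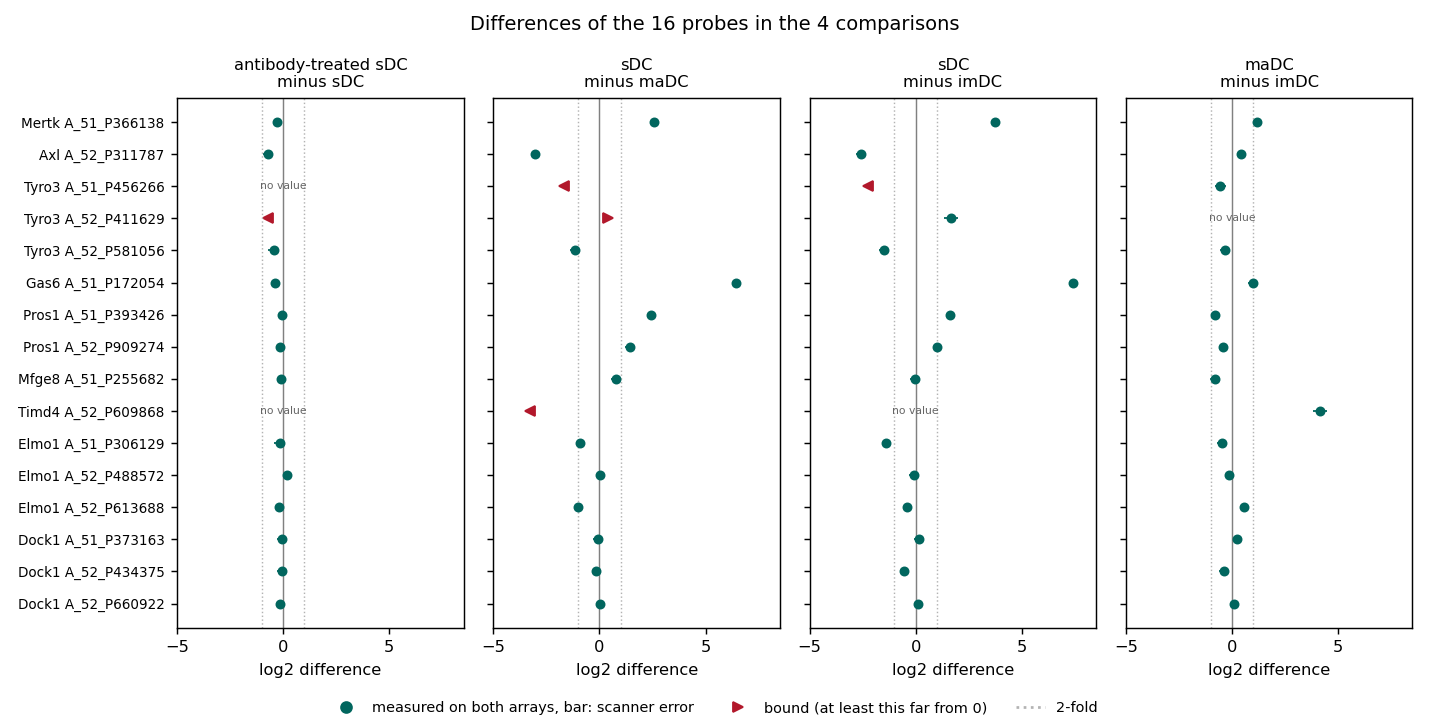
Log2 differences of the 16 probes (horizontal axis) in the comparisons of antibody-treated sDC minus sDC, sDC minus maDC, sDC minus imDC and maDC minus imDC, 1 row per probe, with bars for the scanner error and triangles for bounds; dotted lines mark 2-fold. All 13 probes measured in the antibody comparison, and the 1 bound, lie within the dotted lines, whereas Gas6 reaches 7.43 in sDC minus imDC.

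The comparison of maDC with imDC followed 4 to 5 further days of culture together with LPS, so time and LPS cannot be told apart. Mertk was 2.26-fold higher in maDC (1.18) and Timd4 17.7-fold higher, 2 of 9 genes beside 21.6% of 14108 genes. None of the 9 genes was 2-fold lower (0 of 9, beside 10.8%). Gas6 fell just short, at 1.98-fold higher (0.99), and the other differences between maDC and imDC were 0.44 for Axl, −0.34 for Tyro3, −0.80 for Pros1, 0.59 for Elmo1 and 0.09 for Dock1. The median of the 9 was 0.44, against 0.185 over all genes. Scaling by quantiles brought the median of all genes to 0.02 and Mertk to 0.92, under 2-fold, and took Mfge8 past it, to −1.17.

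The antibody comparison asked how the sDC changed when IL-10 was neutralized. No member differed by 2-fold: 0 of 8 genes with a value were higher, beside 0.862% of 14393 genes, and 0 of 8 were lower, beside 1.26%. By each gene's brightest probe all 8 differences were below 0, except that Pros1 turned to 0.005 with normexp, with a median of −0.25 against −0.03 over all genes. The widest was that of Axl, −0.74 or 1.67-fold lower in antibody-treated sDC, rank 428 from the bottom of 13802 measured genes, followed by Tyro3 at −0.46, Gas6 at −0.39 and Mertk at −0.29. Pros1, Mfge8, Elmo1 and Dock1 lay between −0.20 and −0.05, within their scanner errors. At the upstream Tyro3 probe, antibody-treated sDC were at least 1.66-fold lower. On the same arrays the stromal list had a median difference of −0.82, with 2 of 16 genes 2-fold lower, and 7 of 9 neutrophil markers were 2-fold higher; their part in these small differences was not tested. With the antibody-treated array in place of the sDC array, a choice made after seeing the data, the counts of the 9 genes stayed at 3 higher and 2 lower against imDC and 3 higher and 4 lower against maDC. The shares over all genes were not counted with the array swapped, so these counts have no background to be read against.

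Further genes of the uptake pathway were read in 7 lists. Their counts stand beside the shares over all genes, 25.4% higher and 16.1% lower in sDC against imDC and 14.2% and 16.8% in sDC against maDC. Other engulfment receptors included 8 of 18 that were at least 2-fold higher in sDC than in imDC and 2 that were lower, with a median of 0.71. Stab1, encoding the scavenger receptor stabilin-1, was 65.2-fold higher, Lrp1 23.9-fold and Trem2 18.1-fold. Against maDC, 5 of 17 were higher and 3 lower. Lrp1 was 8.72-fold higher, Itgb3, an integrin chain that pairs with alpha-v, was 7.21-fold lower, and Havcr1, encoding TIM-1, at least 10.2-fold lower. Itgb5, another chain that pairs with alpha-v, was 3.81-fold higher, and Itgav, the alpha-v gene, stayed within 2-fold. Other bridging and opsonin genes were higher in sDC than in imDC in 5 of 10 and lower in 2, with C1qc, a chain of complement C1q, 127-fold, Colec12 63.7-fold and C1qa 48.1-fold higher. Against maDC, 5 of 10 were higher and 2 lower, Colec12 by 24.9-fold, C1qa by 18.9-fold and C1qc by 16.2-fold higher. C1qa and C1qb also belong to the macrophage marker list, so the counts of these lists share genes.

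Genes for the vitamin K cycle that modifies Gas6 and protein S, and for receptor shedding, formed a list of 7. Against imDC, 3 of 7 were higher in sDC and 1 lower, where Furin was 3.65-fold and Vkorc1, encoding vitamin K epoxide reductase, 3.10-fold higher, and the quinone reductase gene Nqo1 was 18.5-fold lower. Against maDC, 1 of 7 was higher, Adam17 at 2.29-fold, whose protease is known to release the Mertk ectodomain, and Nqo1 was 28.6-fold lower. Engulfment signalling genes were higher in sDC than in imDC in 7 of 20 and lower in 2, led by Bcar1 at 43.5-fold, Dock4 at 11.03-fold and Ptk2 at 4.53-fold higher. Against maDC, 4 of 20 were higher, with Dock4 at 5.30-fold and Vav3 at 3.64-fold, and 2 were lower, with Arhgef16 at 4.51-fold.

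Signals that attract phagocytes or hold them off were split. In sDC against imDC, 6 of 12 were higher and 4 lower, and the fractalkine receptor gene Cx3cr1 was 56.8-fold higher, Cd24a 33.9-fold lower and Pecam1 26.6-fold lower. In sDC against maDC, 5 were higher and 4 lower, among them Cx3cl1, the fractalkine gene, 57.7-fold, Cd24a 14.2-fold and Pecam1 12.2-fold lower. Genes of digestion and lipid efflux counted 6 of 18 higher and 3 lower against imDC, with Abca1, the cholesterol exporter, 87.7-fold higher, Pparg 93.7-fold lower and Dnase2a 7.72-fold lower. Against maDC, 3 were higher and 3 lower, with Rxra 5.32-fold higher, Pparg 8.53-fold lower and Dnase2a 2.96-fold lower. Of the 8 genes linked to TAM feedback on interferon and cytokine signalling, 6 were higher and 1 lower in sDC than in imDC. Twist2 was at least 323-fold and Twist1 12.0-fold higher, whereas Socs1, the suppressor of cytokine signalling, was 12.7-fold lower. Against maDC, 3 were higher and 3 lower, with Twist2 at least 90.2-fold higher, Socs1 19.6-fold lower and Nr4a1 2.37-fold lower. Twist2 was not well above background in maDC or imDC. In antibody-treated sDC against sDC, Twist2 and Twist1 differed by −0.90 and −0.78, beside medians of −0.08 for their list and −0.82 for the stromal list. The part of stromal cells in the Twist1 and Twist2 signals was not tested.

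**Figure D4:**
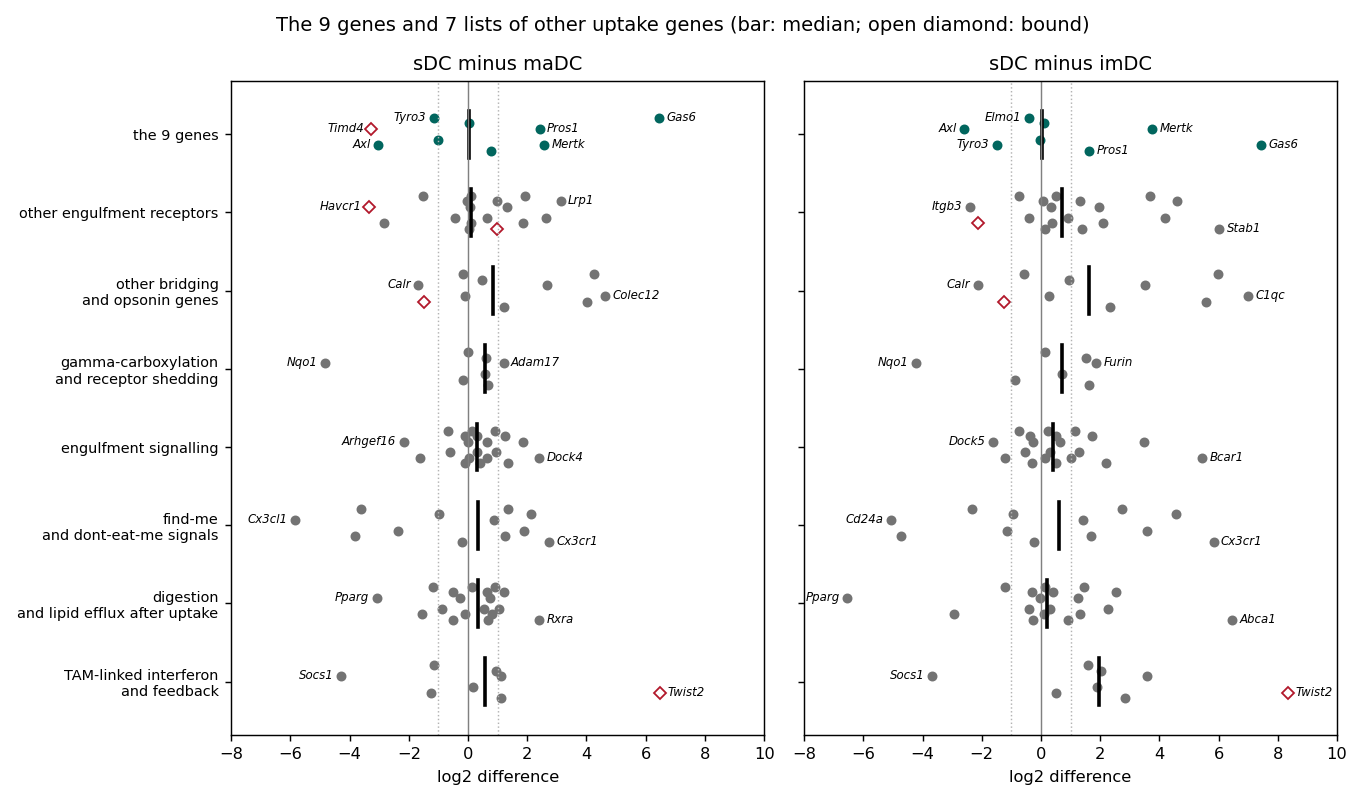
Log2 differences (horizontal axis) of the 9 genes and of 7 lists of other uptake genes (vertical axis) for sDC minus maDC and sDC minus imDC, with 1 point per gene, a bar at each list's median, open diamonds for bounds and dotted lines at 2-fold. In sDC minus imDC, the 8 of the 9 genes with a value spread from Axl at −2.59 to Gas6 at 7.43 around a median of 0.03.

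In the maDC comparison with imDC, where 21.6% of all genes were higher and 10.8% lower, the lists counted 8 higher and 0 lower of 16 other engulfment receptors, 4 and 0 of 10 bridging and opsonin genes, 1 and 0 of 7 carboxylation and shedding genes, 4 and 1 of 20 signalling genes, 6 and 2 of 12 signals, 4 and 2 of 18 digestion genes and 4 and 0 of 7 feedback genes. The shares of signalling genes (4 of 20) and digestion genes (4 of 18) that were higher lay near that of all genes. In antibody-treated sDC against sDC, Megf10, an engulfment receptor gene at least 2.45-fold lower, was the one gene of the 7 lists past 2-fold.

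The nearest genes of the other members over the 4 arrays were found by the same distance. Those of Mertk were Tfpi (0.091), Ddah2 (0.097) and Rilpl1 (0.101), and those of Axl were Cd34 (0.039), Itgb3 (0.078) and Zeb1 (0.12). The pattern of Tyro3, by its brightest probe, was nearest to Cngb1 (0.071), Sulf2 (0.083) and Tcp11l1 (0.099), and that of Pros1 to Olfm1 (0.037), Lrrc27 (0.048) and Map3k5 (0.053). Itgb3 was thus both a listed engulfment receptor and the second-nearest gene to Axl, with levels of −0.002 in antibody-treated sDC, 0.91 in sDC, 3.75 in maDC and 3.31 in imDC. For Mfge8, Elmo1 and Dock1, the nearest genes were Zfp455 (0.032), Phf24 (0.016) and Cdc27 (0.012). With 4 arrays many genes share such a pattern, and the distances are descriptions of these arrays.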

How the data were processed

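RNA of 4 samples (Trizol and columns, 0.5 µg amplified, Cy3, per the labels' protocols) was read on 1-colour Agilent arrays, 1 array per group. Per the file headers, Agilent Feature Extraction 10.5.1.1 made the deposited processed intensity of each spot and mm9 gave the positions, whereas version 9.1 stands in the submitters' processing notes. A value table was deposited too: its columns had a median of 6.30 each and correlated at 0.997 to 1.00 with log2 intensity, so its scale is log2, without centring of genes.

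Here log2 of the processed intensity had each array's 75th percentile subtracted. Control and outlier spots (76 to 148 per array) were dropped, the spots left for each probe were averaged, and well above background means that the scanner software marked 50% or more of them so. A probe well above background on 1 array of a pair gave a bound, written "at least": for the dim side, the lowest signal of any probe well above background was used unless the probe itself read higher. The probe with the highest mean stands for its gene in counts. Of the 16 probes, 15 were named by accession and 1 by symbol from a RefSeq table of GRCm38.p6, used for names alone. All probes of the 9 genes are described. From each other list the text names up to 3 genes with the largest differences per comparison, and Itgb5 and Itgav are named besides, next to Itgb3. For each member measured on all 4 arrays, up to 3 nearest genes are named. The 9 genes and the lists were chosen with earlier results of these data known.

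Alternatives were normexp background correction (offset 50), quantile normalization, the deposited table, the mean of measured probes, and other filters on dim probes. The antibody-treated sDC array in place of the sDC array was added after seeing the data. Python 3.11.15, pandas 2.3.3, R 4.3.3 and limma 3.58.1 were used, and the comparison step was tested on simulated data.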

Additional observations from a re-analysis of the deposited data

How the results depend on the processing

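Of 321 recomputed single differences, 270 stayed within the scanner error of the reported value, and 51 moved by more. The filters on dim probes leave a probe measured on both arrays unchanged by construction, so many of the 270 could not move. The 321 also include the antibody-treated sDC array put in place of the sDC array, which is another sample and not a processing setting. The sign turned in 5, at probes of Elmo1, Dock1 and Pros1, all with values no wider than 0.134, and in 0 of those reported at 2-fold or more. Among the 5, the turns to 0.095 at Elmo1 and to −0.043 and −0.134 at Dock1 came from the swapped array. The higher level of Gas6 in sDC held in all alternatives run, between 6.94 and 7.44 against imDC and between 6.05 and 6.79 against maDC, as did that of Mertk (3.45 to 3.76 and 2.29 to 2.72) and the lower level of Axl (−3.33 to −2.55 and −3.77 to −2.91). Of these ends, 6.05 for Gas6, 2.29 for Mertk, and −3.33 and −3.77 for Axl came from the swapped array. Counts of the 9 genes moved under the processing settings. Against imDC, maDC had 1 gene higher and 1 lower, in place of 2 and 0, both under quantile normalization and in the authors' deposited table, and 1 higher when only probes well above background on all arrays were kept, which leaves out Timd4. Those scalings also brought the median of all genes near 0 (0.02 and 0.01, in place of 0.185). Under normexp, 1 gene was lower in sDC than imDC in place of 2, since Tyro3 came to −0.998, and 2 genes were lower in sDC than maDC in place of 4, as Tyro3 (−0.81) and Elmo1 (−0.87) passed inside 2-fold. With the mean of measured probes, 1 gene was lower in sDC than imDC, as Tyro3 dropped out. Lower genes in sDC than maDC numbered 3 in place of 4 with that mean, and likewise with only probes well above background on all arrays. With no filter on dim probes, 1 gene was lower in antibody-treated sDC than sDC, in place of 0, namely Timd4, which is dim on both arrays. No paired analysis was possible because each group has 1 array. Probes close to background, those of Timd4 and Tyro3, are the least certain.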
